A study of Danio rerio with 6 samples.

Results

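Of the 226951 peaks that 4 zebrafish MeDIP-seq lists hold on chromosomes 1 and 10 to 18, 28375 (12.5%) lay near a chromosome end, with the midpoint within 3 Mb of position 1 or of the furthest peak end. The 4 lists hold 262064 peaks in all, and each stops part-way through its last chromosome. These 20 ends, 10 left and 10 right, made up 11.8% of the length of the 10 chromosomes. They held 8087 and 8244 peaks in the control lists and 5923 and 6121 in the dnmt1 morphant lists. The choice used position alone. MeDIP-seq sequences DNA fragments pulled down by an antibody to 5-methylcytosine, and a peak is a stretch where such fragments pile up.

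All 4 libraries came from whole embryos at 80% epiboly, late in gastrulation, with 2 libraries from control embryos and 2 from dnmt1 morphants, which are embryos injected with a morpholino antisense oligonucleotide against dnmt1. The sources used here do not state the strain, the kind of morpholino, any injection of the controls or the number of embryos behind a library. A morpholino lowers its target without removing the gene, and its extent cannot be read from peak lists. The lists hold no expression values, so the labelled tissue could not be checked against marker genes.

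Dnmt1 is the maintenance methyltransferase: after replication it copies methylation from the parental strand onto the new strand, and its partner Uhrf1 recognises the half-methylated sites. Zebrafish DNA is methylated at most CpG sites outside active promoters and enhancers. The antibody reads out the local density of methylated cytosine, so CpG-rich and repeated sequence that is methylated gives strong or broad signal. The DNA next to vertebrate telomeres is rich in repeats, and in mouse and human cells it is known to be heavily methylated. In male zebrafish, meiotic crossovers are known to gather towards the chromosome ends.

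Peaks near the ends were broader than peaks in the interior, in every list and at every end. The median width was 1490 and 1450 bases in control lists 1 and 2, and 1495 and 1442 in morphant lists 1 and 2. In the interior of the same chromosomes it was 1219, 1200, 1272 and 1234 bases in the same order. The 2 sets of values did not overlap: the lowest end value, 1442, lay above the highest interior value, 1272. The ratio of end to interior width was 1.19 ± 0.03 (SD, n = 4 lists), with p = 0.125 in an exact sign-flip permutation test over the lists, the smallest value that 4 lists allow. By group the ratio was 1.215 ± 0.010 in the controls and 1.172 ± 0.005 in the morphants (SD, n = 2 each). Taken end by end, the median width exceeded that of the chromosome's own interior in all 4 lists at 20 of 20 ends. The same held for 26% of 146 windows of 3 Mb cut from the interior. The mean width ratio of an end ran from 1.10 at the left end of chromosome 18 to 1.39 at the left end of chromosome 15, with a median of 1.17 against 0.983 for the interior windows. At 12 of 20 ends it was above that of every interior window of the same chromosome. Only 4 of the 20 lay above all 146 interior windows, which reached 1.25.

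**Figure D1:**
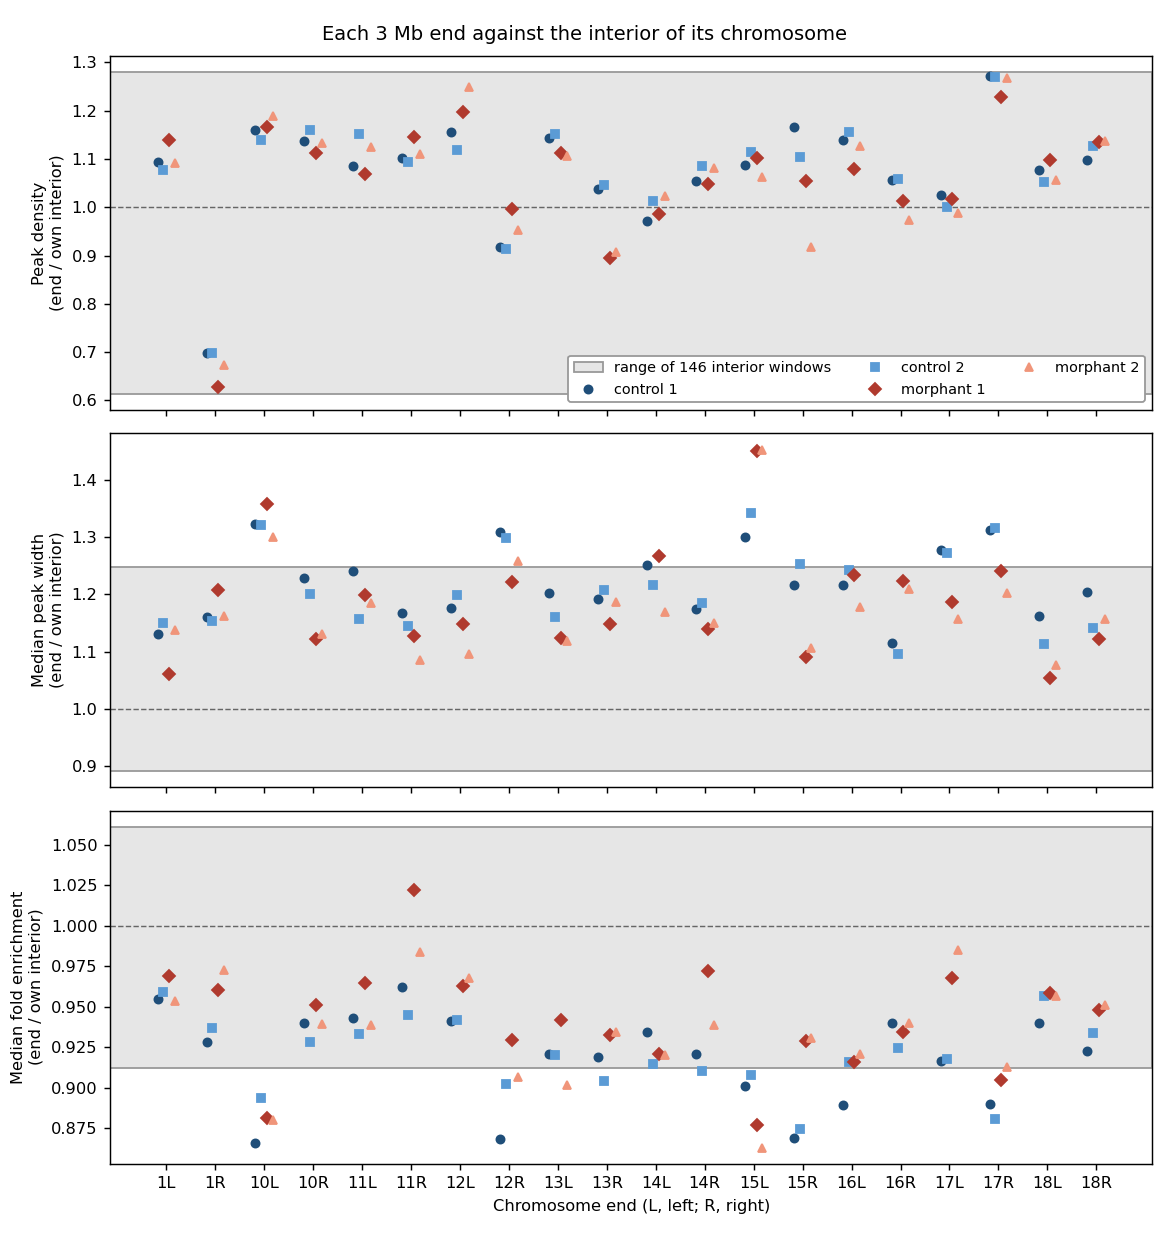
Each point is 1 list at 1 end of 3 Mb, as the ratio to the interior of the same chromosome, for peak density, median width and median fold enrichment. The grey band spans 146 interior windows, averaged over the lists. All width points lie above 1, all but 1 fold enrichment points lie below 1, and density points lie on both sides, with the right end of chromosome 1 lowest.

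The excess at the ends was largest for the broadest peaks. Those of at least 3 kb made up 11.1% and 10.0% of end peaks in the controls and 9.45% and 8.53% in the morphants. They were 3.75%, 3.57%, 3.97% and 3.60% of interior peaks in the same order, so every list had a larger share at the ends. The share was 2.63 ± 0.30 times that of the interior (SD, n = 4, exact sign-flip permutation p = 0.125). By group it was 2.88 ± 0.10 times in the controls and 2.38 ± 0.01 times in the morphants (SD, n = 2 each). The ends, 11.8% of the length, thus held 29.8% and 28.8% of all such peaks in the controls and 25.2% and 25.1% in the morphants. Peaks under 1 kb went the other way, with an end density of 0.66, 0.67, 0.68 and 0.70 times the interior density. The ratio rose through every width class, to 1.81, 1.92, 1.72 and 1.71 for peaks of 2 to 3 kb and to 3.18, 3.03, 2.53 and 2.52 for peaks of 3 kb and over.

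Broad peaks were common close to the tips, taken here as position 1 and the furthest peak end. True chromosome lengths were not known. In the outermost 0.1 Mb, each of the 4 lists had a peak of at least 3 kb at 16 of 20 ends, against 13.8% of 4495 steps of 0.1 Mb in the interior. The exceptions were the right ends of chromosomes 11 and 16 and the left ends of chromosomes 12 and 17. At the right tip of chromosome 1 the widest peak measured 7148 and 6067 bases in the controls and 5219 and 4191 in the morphants. At its left tip the 4 lists agreed closely, with 6222, 6495, 6347 and 6391 bases. These tips were chosen after their values were seen. In the interior the widest region held by all 4 lists spanned 9402 bases. At the ends the widest such region spanned 8264 bases, but it was not a single peak. It lay on chromosome 16 from 2719644 to 2727907, 2.72 Mb from the left end. Each control list had 3 peaks in it, the widest of 3539 and 3432 bases, and each morphant list had 1, of 2083 and 3667 bases. Positions are given as the lists give them. The genes and sequence at these positions were not analysed here.

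Width fell with distance from the tip. Within 0.5 Mb of an end the median width was 1697, 1680, 1714 and 1592 bases in control lists 1 and 2 and morphant lists 1 and 2. Between 3 and 6 Mb it was 1387, 1359.5, 1399 and 1362, still above the 1193, 1175, 1253 and 1214 of the DNA beyond 6 Mb. The share of peaks of at least 3 kb fell in the same order, for example 18.4% in the outermost 0.5 Mb of control list 1, 11.1% over the whole 3 Mb, 6.71% from 3 to 6 Mb and 3.25% beyond. At 13 of 20 ends the outermost 0.5 Mb had a larger median width than the rest of that end in all 4 lists, at none was it smaller in all 4, and the other 7 were mixed. The largest differences were at chromosome 1, where the ratio of outermost to remaining width was on average 1.66 at the right end and 1.58 at the left end.

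**Figure D2:**
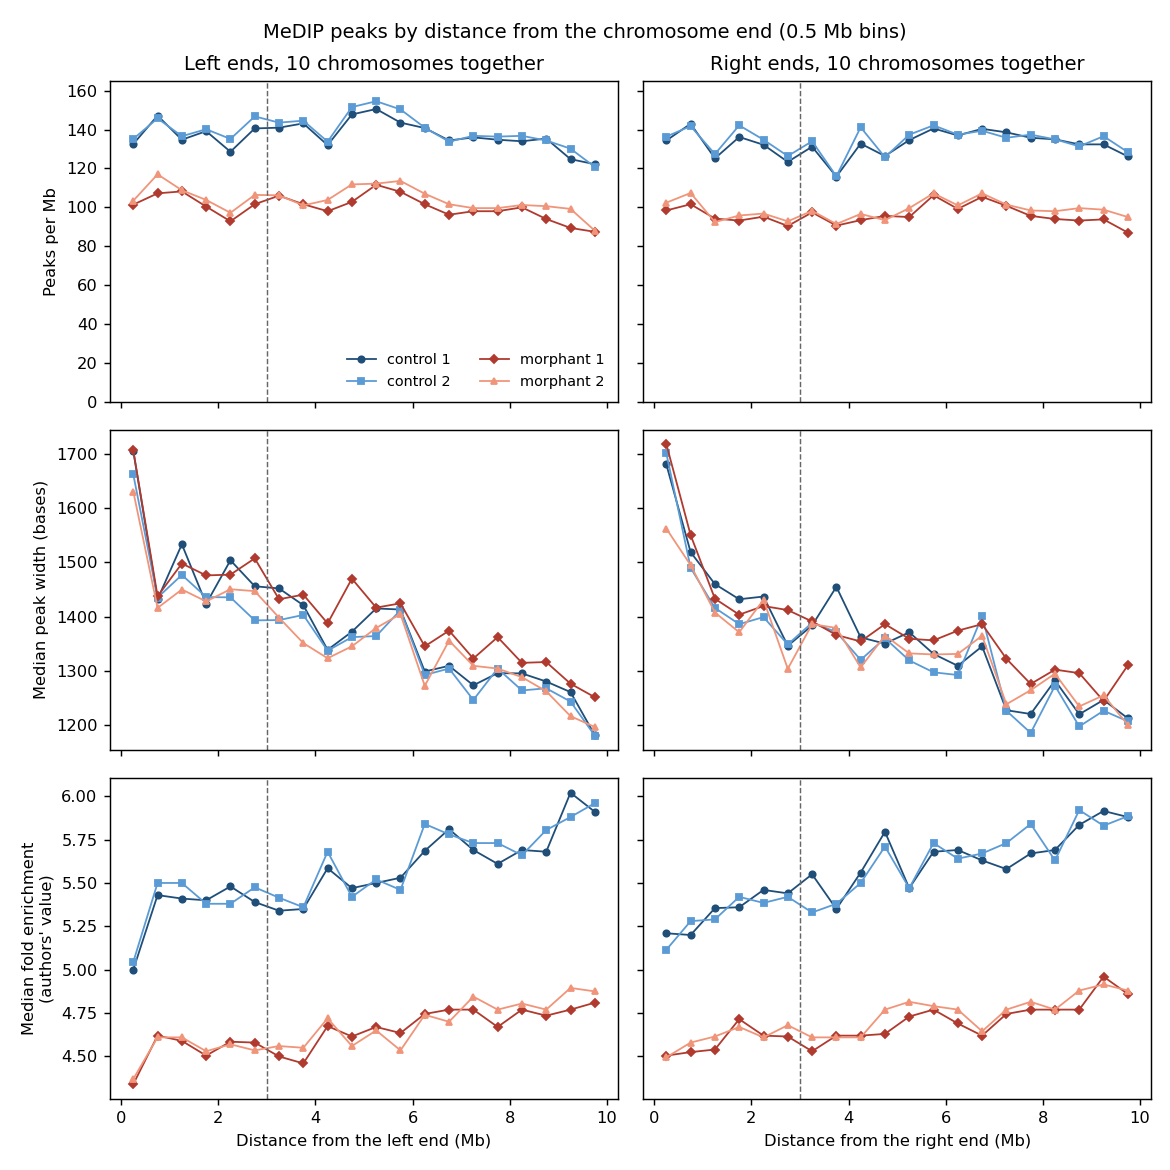
Peaks per Mb, median width in bases and median fold enrichment (the authors' value) in 0.5 Mb bins against distance from the left or right end, over 10 chromosomes, for each list. The dashed line marks 3 Mb. Width falls from 1562.5 to 1718.5 bases in the outermost bin to between 1180 and 1310 at 9.5 to 10 Mb, while fold enrichment rises within every list.

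End peaks also had lower fold enrichment, a value given by the authors for each peak and compared here only within a list. The median was 5.35 at the ends against 5.81 in the interior of control list 1, and 5.365 against 5.84 in control list 2. It was 4.56 against 4.84 in morphant list 1 and 4.58 against 4.91 in morphant list 2. The end value was the lower one in each list, with a ratio of 0.929 ± 0.011 (SD, n = 4, exact sign-flip permutation p = 0.125). By group the ratio was 0.920 ± 0.002 in the controls and 0.937 ± 0.007 in the morphants (SD, n = 2 each). The lower value was not particular to the ends. The neighbouring DNA from 3 to 6 Mb had medians of 5.49, 5.5, 4.62 and 4.63 in control lists 1 and 2 and morphant lists 1 and 2. These lay between the end values and the 5.88, 5.88, 4.91 and 4.93 of the DNA beyond 6 Mb. The median was below the interior in all 4 lists at 19 of 20 ends, against 24.7% of the interior windows. The exception was the right end of chromosome 11, where morphant list 1 had 4.935 and a ratio above 1.

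Within each list the widest end peaks also had the lowest fold enrichment of the 5 width classes. Peaks of at least 3 kb at the ends had medians of 4.73, 4.76, 3.80 and 3.77 in control lists 1 and 2 and morphant lists 1 and 2. At matched width the difference was still present for peaks of 1 kb and over, in every list and class. For peaks of 2 to 3 kb the end to interior ratio was 0.899 and 0.896 in the controls and 0.936 and 0.933 in the morphants. For peaks under 1 kb it was 0.967, 0.978, 1.01 and 0.984, so morphant list 1 went the other way there. Conversely, at matched fold enrichment end peaks remained wider. In the group of lowest fold enrichment, out of 4 equal groups per list, the width ratio was 1.36 and 1.36 in the controls and 1.26 and 1.27 in the morphants, and in the group of highest fold enrichment it was 1.085, 1.083, 1.050 and 1.045.

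Peak number per Mb was only slightly higher at the ends, and the sign depended on which peaks were counted. The density was 135 and 137 peaks per Mb at the ends of the control lists and 98.7 and 102 in the morphants. In the interior it was 125, 127, 92.8 and 96.2 in the same order. Every list was denser at its ends, by a ratio of 1.07 ± 0.01 (SD, n = 4, exact sign-flip permutation p = 0.125). The excess was not particular to the ends: the neighbouring DNA from 3 to 6 Mb had 136.6, 139.6, 100.5 and 102.9 peaks per Mb in the same order, above the end value in each list. End peaks were more often of low fold enrichment: the lowest of 4 equal groups held 33.8% and 33.9% of end peaks in the controls and 34.6% and 33.8% in the morphants. The same group held 23.6% to 23.8% of interior peaks. Among the 50% of peaks of highest fold enrichment in each list, the ends were less dense than the interior, with a ratio of 0.845. With the same number of strongest peaks from every list it was 0.991 ± 0.066 (SD, n = 4), where exact sign-flip permutation gave p = 0.75. That number, 47665, is the whole of morphant list 1, so peaks of low fold enrichment were removed mainly from the controls. The mean thus mixes lists cut to different degrees and does not show equal density.

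Peaks also covered more of the sequence at the ends. They spanned 24.0% and 23.8% of the end bases in the controls and 17.3% and 17.2% in the morphants, against 17.6%, 17.6%, 13.5% and 13.6% of the interior. The ratio was 1.32 ± 0.05 (SD, n = 4, exact sign-flip permutation p = 0.125), and 0.947 among the 50% of peaks of highest fold enrichment. The higher cover was not particular to the ends. From 3 to 6 Mb, peaks covered 22.03% and 22.10% in the controls and 16.13% and 16.03% in the morphants. These lay between the end values and the 16.91%, 16.89%, 13.13% and 13.27% of the DNA beyond 6 Mb. Replicates found end peaks slightly more often than interior peaks. An overlap of at least 1 base was counted, and end peaks, which are wider, were not matched to interior peaks by width. In control list 1, 86.6% of end peaks overlapped a peak of control list 2, against 84.8% in the interior, and in the other direction 85.5% against 83.7%. For morphant list 1 the shares were 74.7% and 72.3%, and for morphant list 2 72.8% and 70.0%. Among the 50% of peaks of highest fold enrichment the mean of end minus interior sharing turned from 2.17 to -0.786 percentage points.

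**Figure D3:**
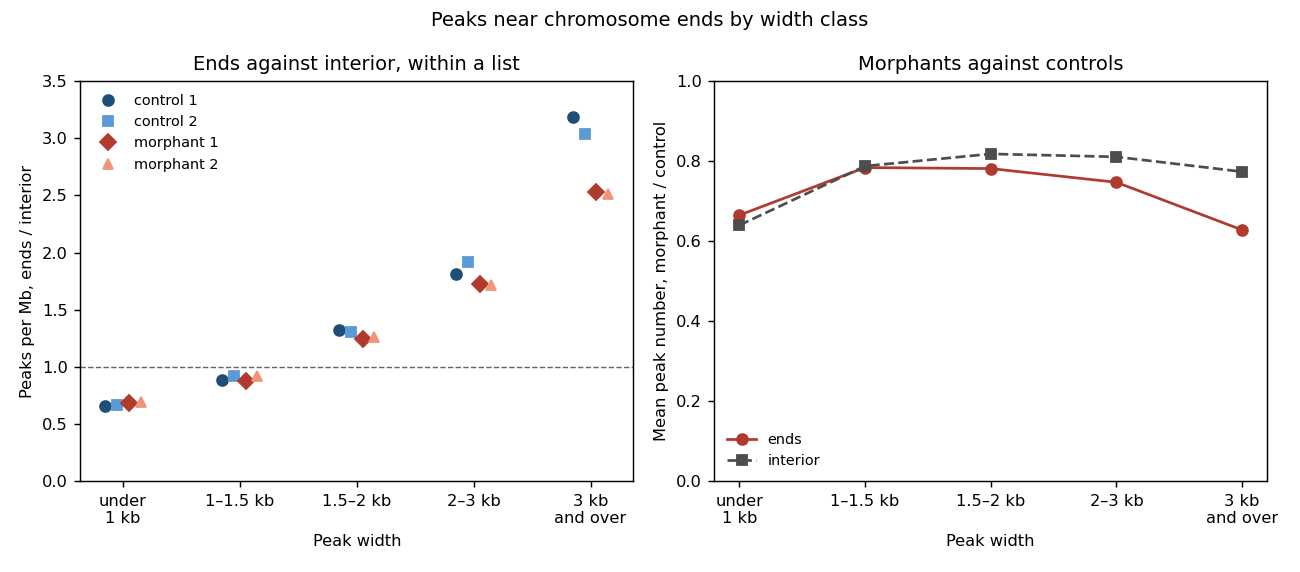
The left panel gives peaks per Mb at the ends over the interior for 5 width classes in each list, rising from 0.66 to 0.70 for peaks under 1 kb to 2.52 to 3.18 for peaks of 3 kb and over. The right panel gives the mean peak number in morphants over controls by width class at the ends and in the interior, which are 0.628 and 0.774 for the widest class.

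Single ends ranged widely in density. It was above the chromosome's own interior in all 4 lists at 13 of 20 ends, against 37.7% of the interior windows, and below it in all 4 lists at 2 ends, against 37% of those windows. The right end of chromosome 17 was the densest, with 466 and 470 peaks in the controls and 331 and 362 in the morphants, 1.26 ± 0.02 times its interior (SD, n = 4). It was denser than 14 of 15 interior windows of its chromosome. The left end of chromosome 10, at 1.16 ± 0.02, was the one end above every interior window of its own chromosome, 13 of 13, and is named after its value was seen. Such a rank is not rare among 20 ends. The second densest was the left end of chromosome 12, with 426, 417, 321 and 342 peaks and a ratio of 1.18 ± 0.06. The right end of chromosome 12 was one of the sparsest, with 338, 341, 267 and 261 peaks and a ratio of 0.945 ± 0.038, so the ends of that chromosome lay on opposite sides of their interior. Within 1 Mb of that end, and within 2 Mb, the ratio was 1.03 and 1.08, and its sparsest bin lay 2.5 to 3 Mb from the tip, with 20, 19, 17 and 15 peaks.

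The right end of chromosome 1 stood apart as the sparsest. It held 248 and 252 peaks in the controls and 166 and 184 in the morphants, 0.675 ± 0.033 times its interior (SD, n = 4), and only 1 of 17 interior windows of that chromosome was sparser. The outer 1 Mb was nevertheless dense, at 1.14 times the interior. Further in, a stretch of 381 kb from 57332025 to 57712742 held no peak in any list. It was the longest such stretch on the 10 chromosomes. Among 14 stretches of at least 100 kb with no peak in any list, 3 lay at the ends, which made up 11.8% of the length. The others at the ends were on chromosome 12 from 46358493 to 46604171 (246 kb) and on chromosome 17 from 2735149 to 2945443 (210.3 kb). The longest in the interior was 206 kb. Whether reads can be placed in these stretches was not tested. Within each single list, gaps of at least 50 kb between peaks were rarer at the ends than in the interior. Per 100 Mb there were 23.3 against 33.1 and 26.7 against 29.8 in the controls. The morphants had 43.3 against 68.4 and 43.3 against 61.3.

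In the morphants, fewer peaks were listed at the ends as in the rest of the chromosomes, and the deficit for peaks of all widths was of similar size. At 20 of 20 ends each morphant list had fewer peaks than each control list, and the same was true of 100% of the interior windows. The mean was 6022 ± 140 peaks in the morphants and 8166 ± 111 in the controls (SD, n = 2 each), a ratio of 0.737 against 0.749 in the interior. On the log2 scale the end to interior ratio of peak numbers was 0.02 lower in the morphants, with SDs of 0.003 in both groups. An exact two-sided permutation test gave p = 0.33, the smallest value that 2 against 2 lists allow. The direction turned with several choices: the morphant over control ratio at the ends, divided by that in the interior, was 0.985, but 1.01 within 1 Mb of an end and 1.12 with the same number of strongest peaks from every list. The last choice removed peaks mainly from the control lists, so it did not treat the groups alike. Relative to the interior, peak number was lower in both morphant lists than in both controls at 8 of 20 ends, against 28.8% of the interior windows, and higher at 5 of 20, against 30.8%. The sources used here do not state the read depth, and its part in peak number was not tested.

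Left and right ends were then taken apart. Left ends held 4115 and 4199 peaks in the controls and 3058 and 3183 in the morphants, a ratio of 0.751. Right ends held 3972 and 4045 against 2865 and 2938, a ratio of 0.724. The log2 ratio of right over left peak number was -0.05 in both control lists, and -0.09 and -0.12 in the morphant lists. Both morphant values lay below both control values, by 0.05 on average, with an exact permutation p of 0.33, the smallest possible here. Left and right follow only the direction in which each chromosome is numbered.

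**Figure D4:**
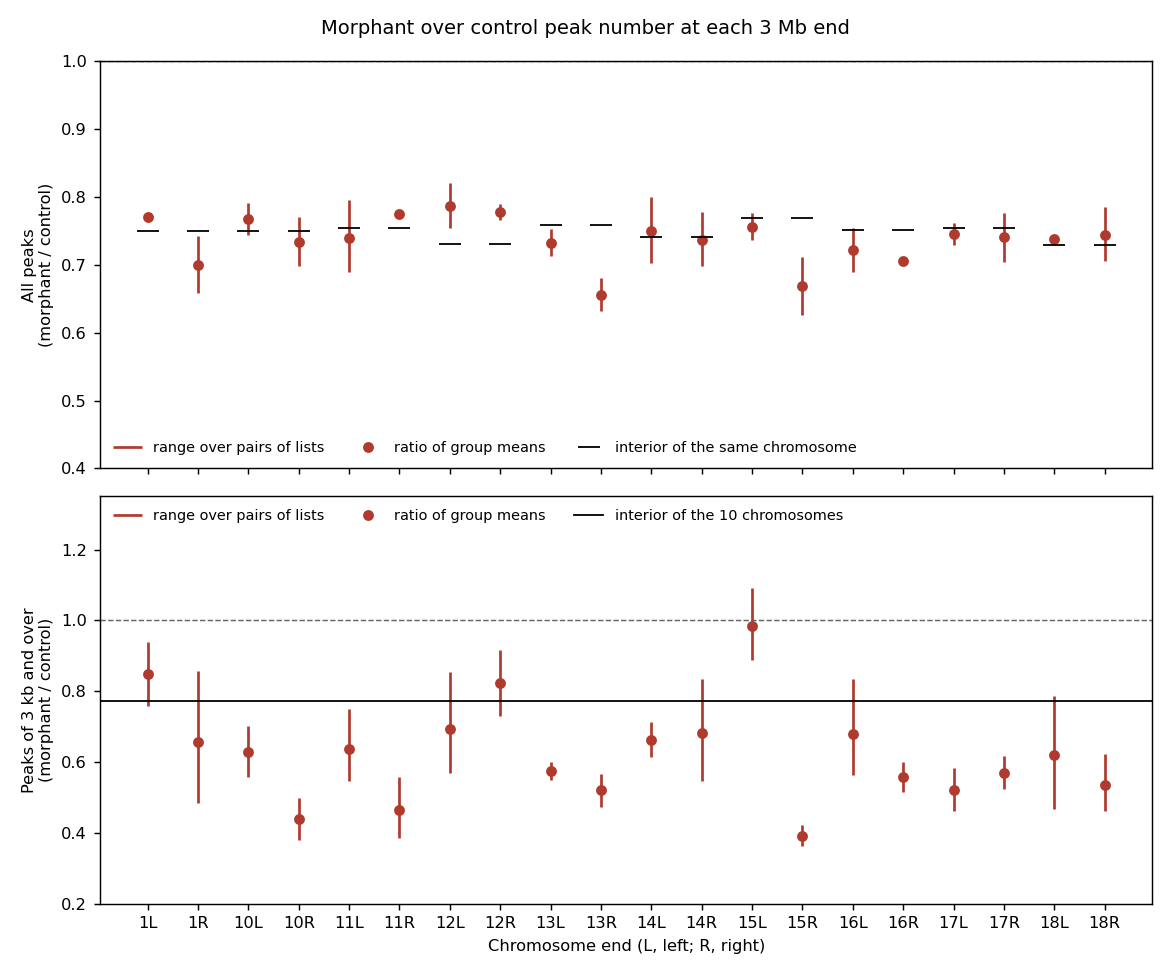
Morphant over control peak number at each end of 3 Mb, for all peaks (top) and for peaks of at least 3 kb (bottom). Points are ratios of group means, lines span the 4 pairs of lists, and black marks give the interior. For all peaks the ends lie between 0.656 and 0.786, around the interior marks. For the broad peaks they lie between 0.393 and 0.985, mostly below the interior line at 0.774.

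Broad peaks were fewer in the morphants, and by a larger factor at the ends than in the pooled interior. There were 897 and 826 end peaks of at least 3 kb in the controls and 560 and 522 in the morphants, a ratio of 0.628 with no overlap between groups. In the interior the ratio was 0.774, from 2113 and 2042 to 1658 and 1556 peaks. The end to interior ratio of broad peaks was thus 0.30 lower on the log2 scale in the morphants, beyond the SDs of 0.05 in controls and 0.01 in morphants (n = 2 each), with an exact permutation p of 0.33, the smallest possible. The ratio of the 2 ratios was 0.812, and between 0.713 and 0.940 under the alternatives run. The larger deficit was not particular to the ends, as the pooled interior mixes unlike parts. From 3 to 6 Mb, broad peaks were 6.71% and 6.26% of 8198 and 8376 control peaks. They were 6.02% and 5.62% of 6031 and 6175 morphant peaks there. Beyond 6 Mb the share was not lower in the morphants, at 3.63% and 3.26% against 3.25% and 3.11% in the controls. Each morphant list had fewer broad peaks than each control list at 19 of 20 ends, against 41.8% of interior windows. Most interior windows hold few broad peaks, and of the 21 windows with at least 25 in the controls on average 81% met the same condition. The count at the ends is to be read against that 81%. The morphant over control ratio in those 21 windows ran from 0.435 to 1.07 with a median of 0.712, closer to the median of 0.625 over the 20 ends than the pooled interior was, and every end but the one at 0.393 lay within that range.

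The morphant over control ratio of broad peaks spread more widely over the ends than that of all peaks. At the right end of chromosome 15 the controls had 55 and 52 peaks of at least 3 kb and the morphants 22 and 20, a ratio of 0.393, the lowest of the 20. At the left end of the same chromosome there were 71 and 66 in the controls and 63 and 72 in the morphants, a ratio of 0.985, and this was the one end where the groups overlapped. All left ends together had a ratio of 0.698 and all right ends 0.552. These 2 ends of chromosome 15 were chosen here after their values were seen. The left end of chromosome 15 also had the largest width ratio of all ends, with medians of 1614 and 1644 bases in the controls and 1884.5 and 1822 in the morphants.

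Most broad control peaks at the ends still had a morphant peak in them, but were covered in part. Of the bases in a control list 1 peak of at least 3 kb at an end, a median of 94.6% was covered in control list 2, 69.9% in morphant list 1 and 65.7% in morphant list 2. For such peaks in the interior the medians were 94.5%, 78.3% and 77.7%. From control list 2 the end values were 96.3% in the other control and 71.2% and 67.8% in the morphants, against 95.9%, 79.3% and 79.1% in the interior. These medians were about equal at ends and interior between the controls, and lower at the ends in both morphant lists. The means were lower at the ends between the controls too, at 82.5% against 85.3% from control list 1 and 83.7% against 86.1% from control list 2. Mean cover of control list 1 peaks was 61.3% at the ends against 67.2% in the interior for morphant list 1, and 58.5% against 66.8% for morphant list 2. Between 4.12% and 7.25% of these end peaks held 2 or more peaks of a morphant list, and 6.63% to 7.84% of the interior ones.

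Control peaks with no overlapping peak in either morphant list were about as common at the ends as elsewhere, but not at matched width. They were 25.5% of end peaks and 26.9% of interior peaks in control list 1, and 26.0% and 27.4% in control list 2. For peaks of 2 to 3 kb they were 15% at the ends and 10.1% in the interior in control list 1, and 16.3% and 10.2% in control list 2. For peaks of at least 3 kb the shares were 10.6% and 7.57%, and 10.8% and 6.02%. For peaks of at least 3 kb a gap between ends and interior was also present between the 2 controls, so it was not particular to the morphants. Of control list 1 peaks of at least 3 kb, 95.1% at the ends and 97.6% in the interior had a peak of control list 2. From control list 2 the shares with a peak of control list 1 were 94.7% and 97.1%. These count overlap with 1 list, where the missing shares count 2. For peaks under 1 kb, which are rarer at the ends and are missing most often, ends and interior were close, at 44.5% and 45.1% in control list 1 and 44.7% and 45.4% in control list 2.

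Merged regions gave similar shares. Both controls held 6777 end regions, and 1378 of them lacked any morphant peak, here termed lost (20.3%, 95% exact binomial interval 19.4 to 21.3), against 21.5% (21.1 to 21.8) in the interior. Both morphants held 4361 end regions, and 241 of them lacked any control peak, here termed gained (5.53%, 4.87 to 6.25), against 7.01% (6.72 to 7.30). The intervals treat regions as independent and hold no variation between libraries. The left ends lost 18.3% and the right ends 22.4%. With an overlap of at least 50% of both peaks, single peaks of control list 1 with a partner in control list 2 were counted, not merged regions. Of these, 25.2% at the ends and 24.96% in the interior had no partner in either morphant list. Among the 50% of peaks of highest fold enrichment, 32.5% of end and 31.4% of interior regions were lost. The direction of the small lost difference was thus not stable. The gained difference turned as well: 18.8% of end and 16.6% of interior regions were gained among the 50% of peaks of highest fold enrichment, and 21.8% and 17.7% with the same number of strongest peaks from every list. The latter choice removed peaks mainly from the control lists. The 3 strongest lost regions by mean fold enrichment were all at right ends. One, at chr17:52574801-52576324, lay 0.758 Mb from the tip and had fold enrichments of 11.5 and 12.47 in the controls. Another, at chr14:49087453-49088879, lay 2.86 Mb in, with 10.36 and 13.52. The last, at chr1:56543691-56545032, lay 2.32 Mb in, with 12.87 and 10.65. Of the 3 strongest gained regions, chromosome 13 had one near each end, at chr13:1949924-1950689 with 6.46 and 6.84 in the morphants and at chr13:51681521-51682901 with 6.46 and 6.75, and chromosome 16 had one at chr16:54844436-54845154 with 6.23 and 7.01.

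For peaks of all widths the ratio was lowest at 2 right ends. At the right end of chromosome 13 the count was 397 and 405 in the controls against 256 and 270 in the morphants, a ratio of 0.656 where the interior of that chromosome had 0.758. At the right end of chromosome 15 there were 457 and 444 peaks in the controls and 316 and 286 in the morphants, a ratio of 0.668 against 0.770. Both ratios lay below those of every interior window of their own chromosome, but not below all 146 windows, which reached 0.642. Both ends were named for their low ratios, and no other of the 20 ends ranked below all its own windows. With 15 and 13 interior windows on these chromosomes, such a rank is not rare among 20 ends. At the right end of chromosome 15, 118 of 382 regions held by both controls were lost (30.9%, 95% exact interval 26.3 to 35.8), where the interior windows ran from 12.9% to 30.2%. At the right end of chromosome 13 it was 84 of 332 (25.3%), within the range of the windows. These shares come from the same peaks as the ratios that named the 2 ends, so they are not separate support. The interval treats regions as independent. The smallest deficits were on chromosome 12, at the left end (0.786) and the right end (0.778), where the interior had a ratio of 0.730. With the same number of strongest peaks from every list, the ratio relative to the interior turned from 0.865 to 1.01 at the right end of chromosome 13 and from 0.868 to 1.12 at the right end of chromosome 15. That choice removed peaks mainly from the control lists. Counted within 1 Mb of its tip, the right end of chromosome 15 had 1.002 times the ratio of its interior, and the lowest bin lay further in.

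Bins of 0.5 Mb showed where the low ratios lay. In 118 end bins the controls averaged 25 peaks or more, and in 115 of these each morphant list was below each control list, as in 98.3% of 891 such interior bins. The ratio ran from 0.487 to 0.951 with a median of 0.736. The lowest, at chr15:45770378-46270377, lay 1.5 to 2 Mb from the right end, with 80 and 78 peaks in the controls and 42 and 35 in the morphants. The next lowest, at chr1:55867774-56367773, had 33 and 34 peaks against 18 and 15. After it came chr13:49780439-50280438, with 67 and 72 against 39 and 38. These last bins were chosen after their values were seen. The highest ratio was found at chr14:1000001-1500000, with 63 and 59 against 56 and 60, where the groups overlapped. Interior bins ran from 0.412 to 0.976, so none of the end bins lay outside their range.

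At the right end of chromosome 1 the lowest ratios lay in its sparse bins. In the outer 1 Mb the controls had 58 and 54 peaks in the first bin and 72 and 71 in the second, and the morphants 43 and 50 and then 55 and 62, with ratios of 0.830 and 0.818. In the 4 bins further in the ratios were 0.533, 0.647, 0.588 and 0.493. In steps of 0.1 Mb, the step that starts at 56167774 had 6 and 4 control peaks and 0 morphant peaks, and the next had 2 and 2 against 0. These steps were chosen after their values were seen and hold too few peaks for a ratio.

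**Figure D5:**
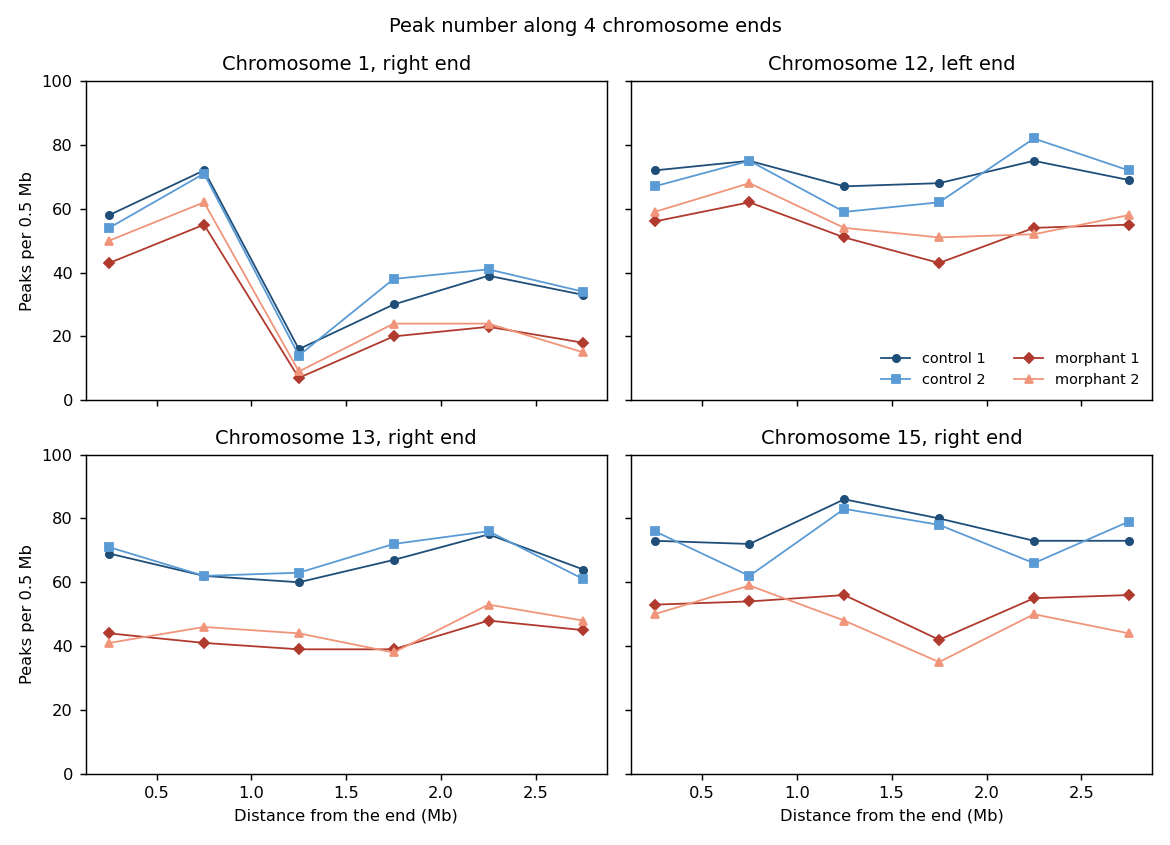
Peak number in 0.5 Mb bins against distance from the end in Mb, for each list, at the right ends of chromosomes 1, 13 and 15 and the left end of chromosome 12. The morphant lists lie below the control lists in all 24 bins, furthest at 1.5 to 2 Mb on chromosome 15, and all lists dip to between 7 and 16 peaks at 1 to 1.5 Mb on chromosome 1.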

How the data were processed

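The deposited data used here are 4 MeDIP-seq peak lists of whole embryos, 2 control and 2 dnmt1 morphant, each made by the authors from its own library. The file headers name chromosome, start and end columns and fold enrichment, a ratio the authors deposited per peak. Per the submitters' processing notes, the tools were TopHat2, BWA, MACS2 and HTSeq 0.6.1, whose roles are not stated. Build, peak threshold, input and read depth were not given in the sources used here. RNA tables of the series hold no coordinates and were not used.

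Every list holds 65516 peaks and stops part-way through its last chromosome, so comparisons kept to chromosomes 1 and 10 to 18, which all 4 lists cover. The furthest peak end over the lists stood in for the chromosome length. Ratios of ends to interior were tested by an exact two-sided sign-flip permutation test over 4 lists (smallest p 0.125), and group differences in the log2 ratio by an exact two-sided permutation test of 2 against 2 lists (smallest p 0.33), so neither can reach 0.05. The labels do not tie replicates to separate clutches, so the spread may be technical. An SD over 4 lists also holds the difference between controls and morphants. Single ends were set beside 146 interior windows of 3 Mb, with no p. Regions joined peaks sharing at least 1 base. Members and measures were chosen with earlier results of these data known. Those on covered bases, wide peaks, peak-free stretches and tips were added after the ends had been examined. Named by rule were the 2 ends of highest and of lowest density and morphant over control ratio. So were the 0.5 Mb end bins of lowest and highest ratio. Among end regions, the rule named the 3 lost and 3 gained with the highest mean value and the widest in all 4 lists. Computations used Python 3.11.15 with SciPy 1.17.1, pandas 2.3.3, numpy 2.4.6 and matplotlib 3.10.9, and were tested on simulated data.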

Additional observations from a re-analysis of the deposited data

How the results depend on the processing

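The widths, fold enrichment, share of broad peaks and the broad peak deficit kept their direction under every alternative run, with ratios of 1.10 to 1.25, 0.913 to 0.977, 1.91 to 3.20 and 0.713 to 0.940. No test could pass 0.05 with 4 lists, so the p-values say nothing of stability. Density turned to 0.845, 0.925 and 0.991 with the upper 50%, the upper 3 of 4 parts and equal numbers (47665) of strongest peaks, and covered length to 0.947 with the upper 50%. The morphant over control ratio relative to the interior turned to 1.01 with 1 Mb ends, 1.01 with the upper 50%, 1.12 with equal numbers and 1.003 for left ends alone. Lost shares at the ends, each against the interior, were 18.9% against 21.4% with 1 Mb ends, 32.5% against 31.4%, 26.1% against 26.2% and 15.5% against 18.4% with the upper 50%, the upper 3 of 4 parts and equal numbers, and 25.2% against 24.96% with reciprocal overlap. Gained shares under the last 4 of these were 18.8% against 16.6%, 12.1% against 12.1%, 21.8% against 17.7% and 8.96% against 9.77%. The lost difference thus turned with the upper 50% and with reciprocal overlap, and the gained difference with the upper 50% and equal numbers. Reciprocal overlap counted single peaks in place of merged regions, of control list 1 for lost and of morphant list 1 for gained. The gap in replicate sharing was 2.77 points with 1 Mb ends, -0.786, -1.04 and 0.315 with those 3 sets of peaks, and 1.52 with reciprocal overlap. With equal numbers, 3 ends were denser than the interior in all 4 lists, and 0 had a morphant over control ratio below it, against 13 and 12. Equal numbers left morphant list 1 whole and removed peaks of low fold enrichment, more frequent at the ends, mainly from the controls. Values with equal numbers therefore do not compare the groups like for like. For the right end of chromosome 1, density within 1 Mb was 1.14 times the interior, for the right end of chromosome 12 it was 1.03, and 1.08 within 2 Mb. The ratio relative to the interior at the right end of chromosome 15 was 1.002 with 1 Mb and 1.12 with equal numbers, and 1.01 at the right end of chromosome 13 with equal numbers. The cause of these changes was not tested. Measures on broad peaks and covered length were added after seeing the data, and so were their alternatives.

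Pairing lists by replicate number (a replicate block) left the ratio relative to the interior at 0.985 and that of broad peaks at 0.812, each with p = 0.5, the smallest that 2 pairs allow in the exact permutation test. Same-numbered lists did not deviate together over 166 windows (correlation -0.084). Those values were densities relative to each list's own interior, so a shift common to a whole list is not seen in them. They cannot show whether same-numbered lists share a clutch or batch. Leaving out single lists gave density ratios of 1.067 to 1.074, width ratios of 1.18 to 1.20, fold enrichment ratios of 0.924 to 0.932 and morphant over control ratios relative to the interior of 0.984 to 0.987. The read depth is unknown, so neither a limit of detection nor the part of peak calling in peak width could be given.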

Other observations

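Chromosomes 2, 19 and 20 are complete in the morphant lists only and entered no comparison above. At their 6 ends the median peak width was above that of the chromosome's own interior in both morphant lists at 6 of 6, by ratios of 1.07 to 1.42, and the fold enrichment was below it at 6 of 6, by ratios of 0.859 to 0.984. Density was higher in both lists at 5 of 6. Peaks of at least 3 kb were 10.4% and 8.44% of the peaks at these ends and 3.996% and 3.81% of interior peaks. There is no control value for these chromosomes, so no comparison with controls was made.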
